A study of Homo sapiens with 4 samples.

Results

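Collagen chains are encoded by a large gene family, and the members described here were the genes whose symbol has the form COL, a number, A and a number. The count files held 44 such genes among 61541 gene rows. Of these, 14 had a mean of at least 1 CPM over the 4 libraries, where CPM is the count of reads on a gene scaled to a common library total, with library sizes corrected by the trimmed mean of M-values. Membership follows from the symbol alone, although the family itself was picked with earlier results of these data known.

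RNA was sequenced from H1299 cells, an established human lung carcinoma line, in 2 libraries from cells treated with ginseng nanoparticles and 2 libraries from cells treated with PBS (phosphate-buffered saline). Both groups were the same line grown in the same serum-containing medium, and the labels give no dose, exposure time or plant part. The study asked how nanoparticles made from ginseng act on the migration of cancer cells, a process in which cells handle the collagen around them. The word control also stands in the titles given to the nanoparticle samples, and the grouping used here is that of the treatment label. Separate cultures behind the replicates are not mentioned in the labels, so p-values cover the spread among 4 libraries, possibly a technical one.

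Counts on genes came to between 24863313 and 24979081 in the nanoparticle libraries and between 22252686 and 22456882 in the PBS libraries. VIM, the mesenchymal intermediate filament gene that H1299 cells are known to express, averaged 2209.5 ± 30.8 CPM with nanoparticles and 2354 ± 50.2 CPM with PBS (SD, n = 2 each; log2 fold change -0.092, edgeR adjusted p = 0.0137). The 6 fibroblast markers, 4 endothelial markers and 4 leukocyte markers summed to between 0.120 and 1.03 CPM per list and library, and DCN, a fibroblast proteoglycan gene, was the only one of these 14 with enough reads to be tested. The fibroblast list summed to 0.760 and 0.603 CPM with nanoparticles and to 0.764 and 1.03 CPM with PBS, with ASPN at 0 in every library. The exact two-sided permutation test of 2 against 2 libraries cannot give a p below 0.33, so summed levels are given without a test.

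Collagens are secreted or membrane-bound proteins in which alpha chains with a glycine-rich repeat wind into a triple helix. Fibrillar collagens such as types I, III and V form the tensile fibres of connective tissue, type IV forms the mesh of basement membranes, and type VI forms beaded filaments close to the cell surface. Other groups are the FACIT collagens, which sit on the surface of fibrils, the transmembrane collagens, which also have an ectodomain that can be shed, and the multiplexins of the basement membrane zone. In solid tumours fibroblasts are known as the main source of fibrillar collagen, and carcinoma cells also make chains of their own.

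The genes of type IV collagen lie in head-to-head pairs, so that 1 stretch of DNA serves as promoter for both neighbours. The stretches shared by the RefSeq promoter windows of each pair are shown here because 1 pair was expressed and 2 pairs were nearly silent in these cells. Each is written on the plus strand of GRCh38.p14 and lies between the start sites of its 2 genes. Capitals mark a CCAAT box (letters CCAAT) or a GC box (letters GGGCGG), searched on both strands.
COL4A6 and COL4A5 on chromosome X (chrX:108439588-108439708): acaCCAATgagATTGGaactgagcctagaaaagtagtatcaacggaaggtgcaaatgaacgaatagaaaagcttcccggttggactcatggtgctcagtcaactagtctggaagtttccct
COL4A1 and COL4A2 on chromosome 13 (chr13:110307158-110307283): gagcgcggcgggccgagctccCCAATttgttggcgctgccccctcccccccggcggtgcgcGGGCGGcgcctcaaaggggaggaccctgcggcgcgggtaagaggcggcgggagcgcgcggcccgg
COL4A4 and COL4A3 on chromosome 2 (chr2:227164374-227164455): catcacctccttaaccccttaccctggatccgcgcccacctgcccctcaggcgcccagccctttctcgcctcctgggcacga
The stretch shown for the expressed COL4A5 pair held 2 CCAAT boxes in opposite directions and no GC box, and its GC content was 44.6%. That of the COL4A1 pair held 1 CCAAT box and 1 GC box at a GC content of 80.2%, and that of the COL4A3 pair held neither motif at 67.1%. These stretches have 121, 126 and 82 bases, and the full windows of 300 bases hold more matches. There COL4A3 had 2 GC boxes, COL4A1 had 2, COL4A2 had 1 and 1 of the 2 windows of COL4A6 had 1, while COL4A4 and COL4A5 had none. CCAAT boxes numbered 2 in the window of COL4A5, 3 and 0 in those of COL4A6, 1 each in those of COL4A1 and COL4A2 and 0 in those of COL4A3 and COL4A4. The RefSeq start sites were 380 bases apart in the COL4A5 pair, 127 in the COL4A1 pair and 419 in the COL4A3 pair. A CCAAT box was present in 34.6% and a GC box in 45.0% of 35116 RefSeq promoter windows of 300 bases. A match describes these letters and not a bound factor.

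Promoter windows were matched for 32 of the 44 chains. The upstream 250 bases are shown for COL6A2, which had the highest level per kilobase of any chain, and for COL13A1, the chain that differed between the groups. Both lie on the plus strand of GRCh38.p14 and end just before the start site. Here capitals mark a GC box or a TATA box (letters TATAAA), again on both strands.
COL6A2 on chromosome 21 (chr21:46097862-46098111): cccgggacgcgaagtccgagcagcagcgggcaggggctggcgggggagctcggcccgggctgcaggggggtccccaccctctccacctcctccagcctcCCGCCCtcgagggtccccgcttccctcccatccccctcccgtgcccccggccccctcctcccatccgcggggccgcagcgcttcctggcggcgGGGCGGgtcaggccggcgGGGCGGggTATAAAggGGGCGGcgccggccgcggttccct
COL13A1 on chromosome 10 (chr10:69801656-69801905): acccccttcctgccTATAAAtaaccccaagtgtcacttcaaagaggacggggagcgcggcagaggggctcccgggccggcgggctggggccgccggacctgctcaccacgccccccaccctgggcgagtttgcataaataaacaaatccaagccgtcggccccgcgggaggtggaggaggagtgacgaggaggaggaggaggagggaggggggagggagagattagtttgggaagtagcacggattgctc
COL6A2 had 4 GC boxes and 1 TATA box and COL13A1 had 1 TATA box and no GC box. The TATA match of COL6A2 lies close to the start site, whereas that of COL13A1 lies near the far end of its stretch. TATAAA was present in 11.5% of all windows. Chains of at least 1 CPM had it in 5 of 16 windows (31.2%, from 11 genes). Chains under 1 CPM had it in 3 of 28 windows (10.7%, from 21 genes). Some chains have several windows, and these shares were not tested. The median GC content of the windows was 62.8% for chains of at least 1 CPM and 66.3% for the other chains, beside 58.7% for all windows.

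H1299 cells devoted few reads to collagen, and most of these went to 3 chains. Summed over the family, collagen mRNA stood at 607 and 576 CPM with nanoparticles and at 605 and 612 CPM with PBS, so that 1 nanoparticle library lay within the range of the PBS libraries and the other below it. This was 0.0608% and 0.0576% of gene counts with nanoparticles and 0.0605% and 0.0609% with PBS (the Wilson 95% intervals, which cover counting error only, ran from 0.0598% to 0.0617% and from 0.0567% to 0.0586% with nanoparticles, and from 0.0595% to 0.0615% and from 0.0599% to 0.0619% with PBS). COL18A1, COL6A2 and COL6A1 together held 80.0% and 78.5% of collagen reads with nanoparticles and 79.2% and 79.9% with PBS. These 3 genes lie on the long arm of chromosome 21 (GRCh38, GENCODE 29 models): COL18A1 from 45405137 to 45513720, COL6A1 from 45981737 to 46005050 and COL6A2 from 46098097 to 46132849. The gap is 468 kb between COL18A1 and COL6A1 and 93.0 kb between COL6A1 and COL6A2.

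Levels of different genes were compared per kilobase of the principal transcript. COL6A2 led with 45.6 and 42.1 CPM per kb in nanoparticle libraries and 45.4 and 45.8 in PBS libraries. COL6A1 followed at 33.3 and 30.9 with nanoparticles and 31.6 and 33.2 with PBS, and COL18A1 stood at 31.5 and 29.6 with nanoparticles and 31.8 and 32.0 with PBS. These last 2 overlapped across libraries, whereas COL6A2 lay above both in each library. COL13A1, a transmembrane collagen of adhesion sites, came next at 11.6 and 11.1 CPM per kb with nanoparticles and 14.0 and 12.9 with PBS. After a gap came COL12A1, COL27A1, COL9A3 and COL17A1, whose levels in single libraries lay between 1.90 and 2.69 CPM per kb and whose ranges overlapped from each to the next. COL4A5 was next with 0.643 to 0.915 CPM per kb over the 4 libraries. COL7A1, COL16A1, COL11A2, COL4A6 and COL5A2 completed the 14, with 0.114 to 0.511 CPM per kb in single libraries and with overlap between neighbours. COL25A1, under 1 CPM but with a short transcript, stood above COL5A2 on this scale (0.225 against 0.159 CPM per kb on average), but below it with the union of all exons as length (0.0702 against 0.151).

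**Figure D1:**
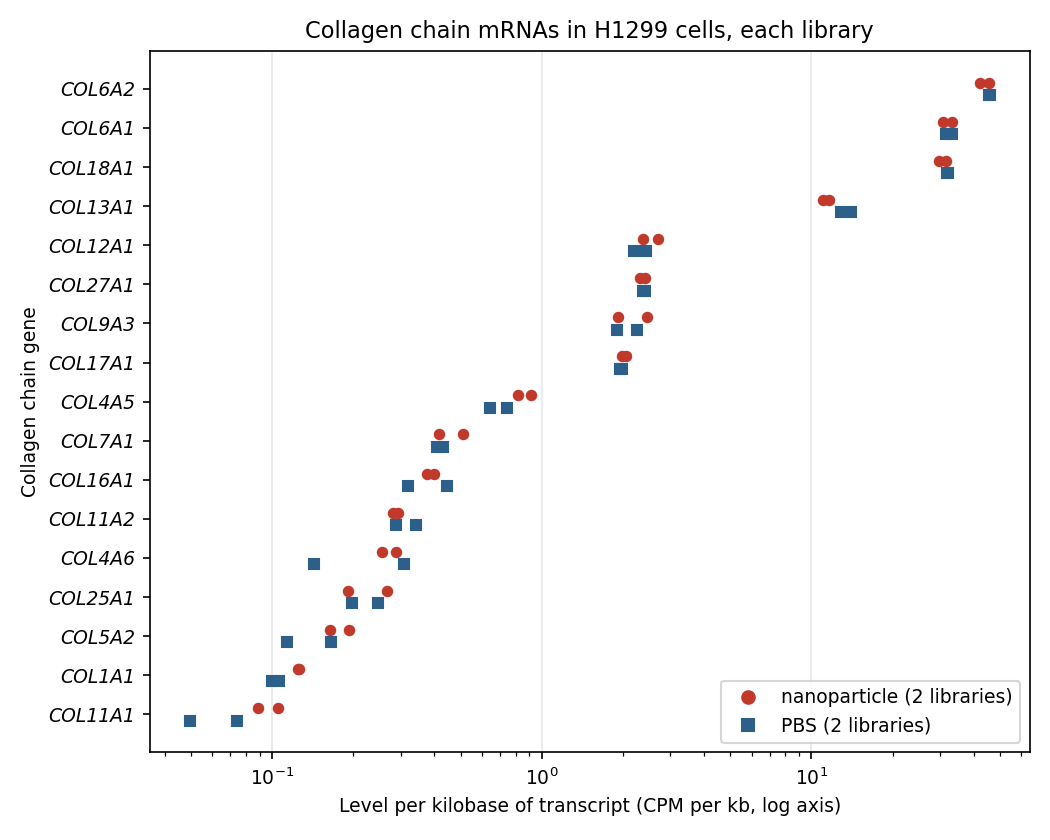
Level of each tested collagen chain in each library, as CPM per kilobase of the principal transcript on a log axis; circles are the 2 nanoparticle libraries and squares the 2 PBS libraries. COL6A2, COL6A1 and COL18A1 lie between 29.6 and 45.8 CPM per kb, COL13A1 between 11.1 and 14.0, and the circles and squares of 11 chains overlap.

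The type VI filament was represented by an incomplete set of chains. Its trimer is known to combine COL6A1, COL6A2 and a longer chain encoded by COL6A3, COL6A5 or COL6A6. COL6A1 had 3529 and 3256 reads with nanoparticles and 2980 and 3141 with PBS, and COL6A2 had 3946 and 3625 reads with nanoparticles and 3496 and 3546 with PBS. COL6A3, by contrast, had 7 and 16 reads with nanoparticles and 6 and 8 with PBS, and COL6A5 and COL6A6 had no read in any library. Per kilobase, and with the libraries pooled, COL6A1 was 885-fold above COL6A3 (exact 95% interval 642 to 1257, counting error only). The absence of reads on COL6A5 and COL6A6 allows a level of up to 0.0318 CPM each over the 4 libraries pooled (3 counts). The ratio of COL6A2 to COL6A1 per kilobase was 1.37 and 1.36 with nanoparticles and 1.44 and 1.38 with PBS, so both nanoparticle libraries lay slightly below both PBS libraries. This ratio was not tested, since 2 against 2 libraries cannot give a small exact p.

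In type IV, levels differed between the 3 gene pairs. COL4A5 had 147 and 131 reads with nanoparticles and 92 and 107 with PBS, and its neighbour COL4A6 had 42 and 47 with nanoparticles and 45 and 21 with PBS. The chains of the ubiquitous basement membrane trimer were close to 0. COL4A1 had 1 and 0 reads with nanoparticles and 1 and 0 with PBS, and COL4A2 had 1 and 0 with nanoparticles and 1 and 2 with PBS. COL4A3 and COL4A4, the pair known from the kidney filter, had 9 and 15 reads over the 4 libraries together. COL4A5 was 246-fold above COL4A1 per kilobase, with an exact 95% interval of 67.6 to 2033 that reflects the 2 reads of COL4A1. Within the expressed pair COL4A6 stood at 0.279 and 0.351 of the level of COL4A5 with nanoparticles and at 0.478 and 0.192 with PBS, so the groups overlapped.

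Other heterotrimeric collagens also had 1 chain well above its partners. COL9A3 of type IX had 503 reads in the 4 libraries, against 3 for COL9A2 and 2 for COL9A1. In type I, the main collagen of bone and tendon, COL1A1 had 21 and 21 reads with nanoparticles and 15 and 16 with PBS. COL1A2 had 1 and 0 reads with nanoparticles and 0 and 1 with PBS, and COL1A1 was 29.4-fold above it per kilobase (exact 95% interval 7.84 to 247). COL5A2 of type V was 6.74-fold above COL5A1 (4.11 to 11.6). COL11A2 of the cartilage type XI was 3.74-fold above COL11A1 (2.75 to 5.15) and 5.32-fold above COL2A1 (3.54 to 8.29), which also serves as a type XI chain. COL3A1, the fibrillar chain of vessels and skin, had 4 reads in the 4 libraries.

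**Figure D2:**
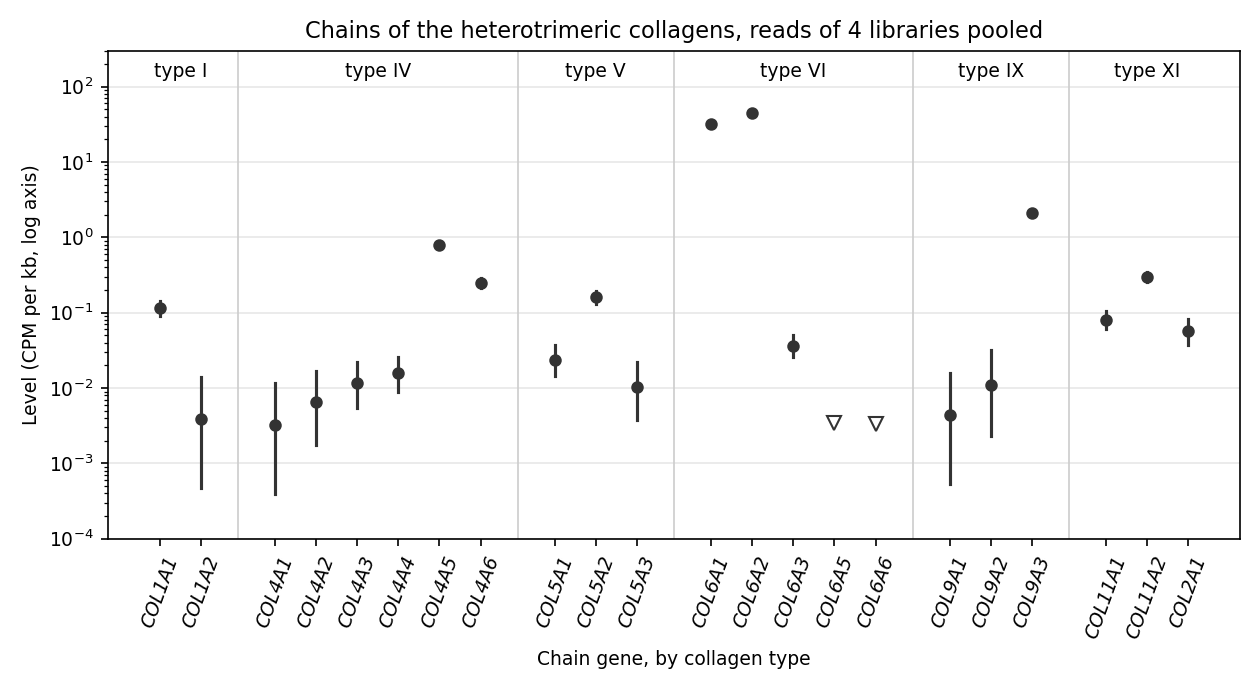
Level of the chains of 6 heterotrimeric collagen types in CPM per kilobase on a log axis, with the reads of the 4 libraries pooled; bars are exact Poisson 95% intervals for counting error, and open triangles mark the limit of 3 counts for chains with no read. COL6A1 and COL6A2 stand at 32.2 and 44.7, COL6A3 at 0.0364, COL4A5 at 0.786 and COL4A1 at 0.00320.

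The remaining expressed chains are known mainly as homotrimers. COL18A1, the basement membrane proteoglycan whose end fragment is endostatin, was the multiplexin present, while the related COL15A1 had 10 reads in the 4 libraries. Exons of COL18A1 overlap those of SLC19A1 on the opposite strand over 1401 bases, 16.4% of its exon union, and whether counting used strand is unknown here, so reads from either gene may not be separable in that stretch. Among the transmembrane collagens COL13A1 and COL17A1 were present (COL17A1 is a hemidesmosome protein of epithelia), COL25A1 had a mean of 0.614 CPM and COL23A1 had 4 reads. COL12A1 and COL16A1 were the FACIT chains besides COL9A3, and COL27A1 and COL7A1 encode a cartilage fibrillar chain and the anchoring fibril of skin. Of the 30 chains under 1 CPM, 27 had too few reads to be tested: 3 had none, 16 had 1 to 10 reads over the 4 libraries and 8 had 11 to 37. These 27 together reached 2.40 and 2.37 CPM with nanoparticles and 2.92 and 2.28 CPM with PBS.

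For the comparison of nanoparticle with PBS, 17 chains had enough reads to be tested, the 14 of at least 1 CPM and COL1A1, COL25A1 and COL11A1. By the quasi-likelihood test of edgeR, at an adjusted p of at most 0.05, COL13A1 alone passed, and it was lower with nanoparticles. Across all 15778 tested genes 2.58% passed in either direction and 0.83% passed as lower, so 1 of 17 chains is not a count that stands out from that background. The median log2 fold change of the 17 chains was 0.041 (nanoparticle over PBS), beside 0.00056 for all tested genes, with 11 chains above 0 and 6 below. Values of the 2 groups did not overlap for 6 of the 17 chains (COL4A5, COL17A1, COL1A1 and COL11A1 higher, COL18A1 and COL13A1 lower with nanoparticles), which is 35.3% beside 46.9% of all tested genes (23.7% higher and 23.2% lower). The nearest libraries of COL17A1 were equal to 3 digits.

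COL13A1 encodes a transmembrane collagen that is known to localise to focal adhesions and to the neuromuscular junction. It lies on chromosome 10 from 69801867 to 69964275 on the plus strand. It had 925 and 878 reads with nanoparticles and 991 and 918 with PBS, which after scaling is 37.0 and 35.3 CPM with nanoparticles and 44.5 and 41.1 CPM with PBS. Both nanoparticle libraries were thus below both PBS libraries. COL13A1 fell to 36.1 ± 1.21 CPM with nanoparticles, against 42.8 ± 2.46 CPM with PBS (mean ± SD, n = 2 each). The log2 fold change was -0.24 with a standard error of 0.057 and a 95% interval from -0.36 to -0.13 (edgeR adjusted p = 0.0239), a decrease of between 22.2% and 8.35%. COL13A1 kept its direction in 14 of 14 alternatives and passed in 8 of them. It did not pass by DESeq2 (adjusted p = 0.282), without a low-count filter (edgeR adjusted p = 0.551) or when any 1 library was left out (log2 fold change -0.30 to -0.19, edgeR adjusted p between 0.0658 and 0.506). Such a fit leaves 1 library in a group and assumes that it varies like the other group. COL13A1 thus passed only in fits of all 4 libraries. In bulk RNA, fewer cells that express a gene and less of its RNA per cell cannot be told apart.

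**Figure D3:**
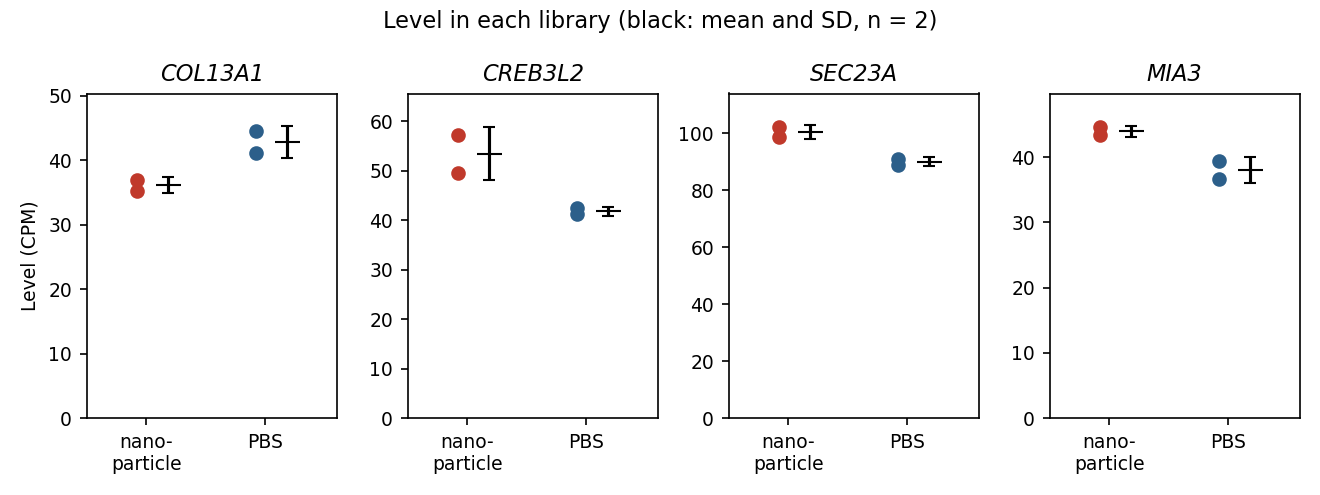
Level in CPM of the collagen chain and the 3 members of the export list that passed the test. Values are shown for each library, nanoparticle on the left and PBS on the right of each panel. The black mark and bar give the mean and SD of 2 libraries, and each axis starts at 0. COL13A1 lies at 35.3 and 37.0 CPM with nanoparticles and at 41.1 and 44.5 with PBS, while CREB3L2, SEC23A and MIA3 are higher with nanoparticles.

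By class, the transmembrane collagens summed to 48.8 and 47.8 CPM with nanoparticles and to 56.6 and 52.7 CPM with PBS, with COL13A1 as the 1 member past the threshold among 3 tested. Type IV chains summed to 7.84 and 7.28 CPM with nanoparticles and to 6.65 and 6.13 CPM with PBS, and neither of the 2 tested passed. Fibrillar chains summed to 23.4 and 24.4 CPM with nanoparticles and to 23.3 and 23.9 CPM with PBS, and FACIT chains to 36.7 and 38.8 CPM with nanoparticles and to 34.5 and 35.5 CPM with PBS. None of 5 tested fibrillar or 3 tested FACIT chains passed, and these class sums were not tested.

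For the 3 most abundant chains the intervals were narrow. COL6A1 averaged 136 ± 7.29 CPM with nanoparticles and 137 ± 4.65 CPM with PBS, and the interval of its change ran from -6.42% to 4.98%. COL6A2 had 158 and 146 CPM with nanoparticles and 157 and 159 CPM with PBS, with an interval from -9.04% to 1.59%. COL18A1 had 187 and 175 CPM with nanoparticles and 188 and 190 CPM with PBS, with an interval from -9.01% to 0.858%. None of these 3 passed the test (edgeR adjusted p = 0.914, 0.492 and 0.403 for COL6A1, COL6A2 and COL18A1). In COL6A1, COL6A2 and COL18A1 nanoparticle replicate 2 was the lowest of the 4 libraries.

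The other chains of at least 5 CPM gave wider intervals. COL12A1, a fibril-surface collagen of tendon and stroma, had 27.9 and 31.5 CPM with nanoparticles and 25.7 and 28.5 CPM with PBS (log2 fold change 0.13, SE 0.071, edgeR adjusted p = 0.367). The groups overlapped, and the interval ran from -1.13% to 21.3%. COL27A1 had 18.1 and 18.8 CPM with nanoparticles and 18.5 and 18.8 CPM with PBS, and COL17A1 had 11.2 and 11.7 CPM with nanoparticles and 11.2 and 11.1 CPM with PBS. Their log2 fold changes were -0.020 (SE 0.074) and 0.041 (SE 0.092). COL9A3 had 6.12 and 4.78 CPM with nanoparticles and 5.62 and 4.74 CPM with PBS, a spread within each group that exceeded the difference between them.

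COL4A5 came second after COL13A1 by its unadjusted p. It had 5.88 and 5.27 CPM with nanoparticles and 4.14 and 4.79 CPM with PBS, so the groups did not overlap. The log2 fold change was 0.32 (SE 0.14, 95% interval 0.036 to 0.60), and it did not pass the adjustment (edgeR adjusted p = 0.231), nor in any of 14 alternatives. An unadjusted p of at most 0.05, which COL4A5 and COL13A1 reached, was reached by 16.8% of all tested genes. COL4A6 from the same promoter region had 1.68 and 1.89 CPM with nanoparticles and 2.02 and 0.940 CPM with PBS (log2 fold change 0.27, SE 0.27, edgeR adjusted p = 0.681). PBS replicate 2 was low for COL4A6, and without it the log2 fold change was -0.18.

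The scarce chains could not be resolved at this depth. COL7A1 (log2 fold change 0.15, SE 0.15), COL16A1 (0.018, SE 0.20), COL11A2 (-0.13, SE 0.21) and COL5A2 (0.35, SE 0.28) did not pass, and their intervals spanned 0. COL1A1 (0.27, SE 0.32), COL11A1 (0.64, SE 0.38) and COL25A1 (0.038, SE 0.36) stood under 1 CPM. The interval of COL11A1, the widest upward, ran from -9.55% to 168%, with 0.760 and 0.643 CPM with nanoparticles and 0.360 and 0.537 CPM with PBS. For COL4A6, COL5A2, COL1A1, COL25A1 and COL11A1 the upper end of the interval lay between 73.0% and 168%. The lower end lay between -39.1% and -9.55%, so both falls and rises are within the intervals.

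**Figure D4:**
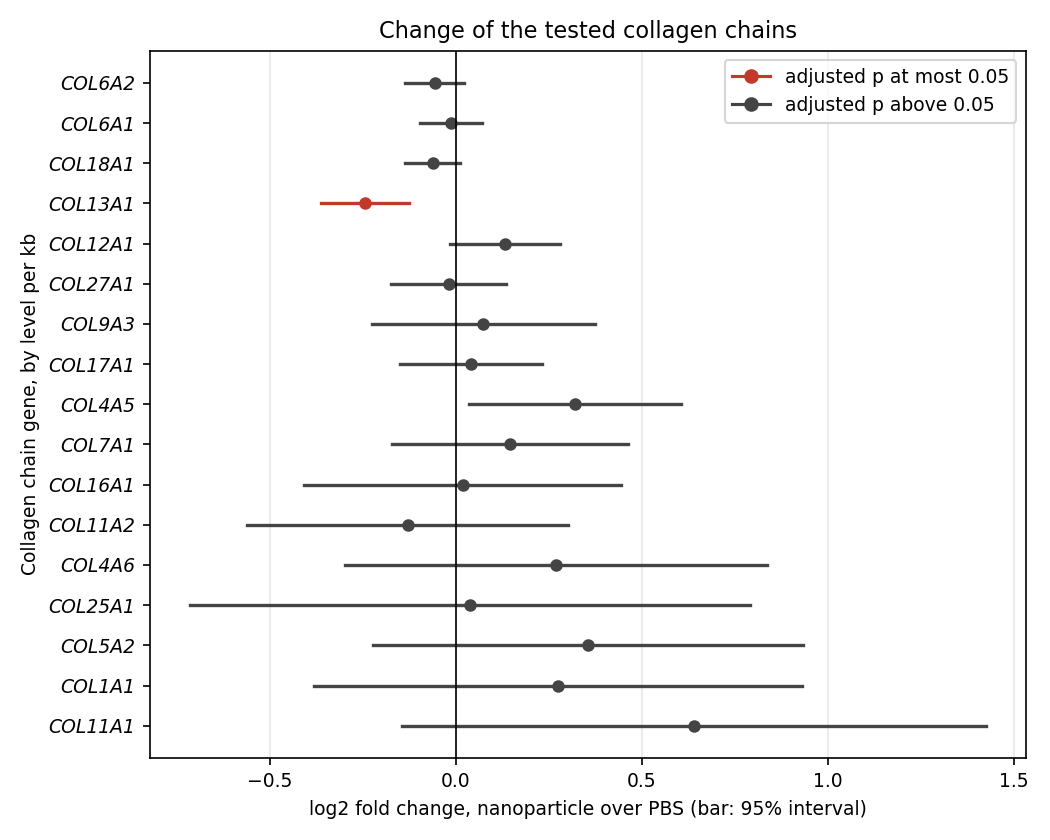
Log2 fold change of the 17 tested collagen chains, nanoparticle over PBS, with 95% intervals from the edgeR fit; chains are ordered by level per kilobase from top to bottom. COL13A1, at -0.24, is the chain past an adjusted p of 0.05, and the intervals widen toward the bottom.

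Collagen transcripts are long, so the comparison was also made with the trend of fold change on transcript length removed. The median principal transcript of the 44 chains was 6049 bases, against 2871 bases for all tested genes. COL13A1 is among the shorter members at 3187 bases, and with the trend removed its log2 fold change was -0.25 (edgeR adjusted p = 0.0272). After that removal COL12A1, the longest chain at 11723 bases, had a log2 fold change of 0.021, COL4A5 of 0.27 and COL18A1 of -0.11 (edgeR adjusted p = 0.933, 0.411 and 0.160).

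A collagen chain needs enzymes, chaperones and carriers before it can be secreted, and 65 genes for these steps and for collagen binding were examined as 5 lists. Of the 55 with enough reads, 3 rose with nanoparticles and none fell, beside 1.75% higher and 0.83% lower among all tested genes. Their median log2 fold change was 0.024.

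The hydroxylation, glycosylation and folding list was fully expressed, with all 20 members at 1 CPM or more and summed levels of 2671 and 2627 CPM with nanoparticles and 2653 and 2674 CPM with PBS. None of its 20 members passed, and its median log2 fold change was -0.0059. P4HB encodes protein disulfide isomerase, which also serves as the beta subunit of prolyl 4-hydroxylase. Its mRNA averaged 686 ± 10.5 CPM with nanoparticles and 692 ± 4.56 CPM with PBS. SERPINH1, which encodes the collagen chaperone HSP47, averaged 149.9 ± 1.49 CPM with nanoparticles and 151 ± 6.67 CPM with PBS, and the interval of its log2 fold change ran from -0.089 to 0.063. The members with the smallest p were P3H2, a prolyl 3-hydroxylase of basement membrane collagen (log2 fold change 0.11, SE 0.042), PLOD2, a lysyl hydroxylase (0.13, SE 0.053), and P4HA3, a catalytic prolyl hydroxylase subunit (0.37, SE 0.16), with edgeR adjusted p of 0.165, 0.227 and 0.237.

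Procollagen is too long for ordinary transport vesicles. The list of 13 genes for its export from the endoplasmic reticulum (ER) and the control of that export held the 3 that rose. CREB3L2, an ER-membrane transcription factor known in mouse cartilage to activate Sec23a, had 57.2 and 49.6 CPM with nanoparticles and 41.2 and 42.4 CPM with PBS (log2 fold change 0.35, SE 0.060, edgeR adjusted p = 0.00213). SEC23A, a component of the inner vesicle coat, had 98.8 and 102 CPM with nanoparticles and 91.1 and 88.9 CPM with PBS (0.16, SE 0.039, edgeR adjusted p = 0.0296). MIA3, which encodes TANGO1, the cargo receptor for procollagen, had 43.4 and 44.5 CPM with nanoparticles and 36.6 and 39.4 CPM with PBS (0.21, SE 0.054, edgeR adjusted p = 0.0421). In each of the 3 both nanoparticle libraries lay above both PBS libraries, which 8 of the 13 members showed, beside 23.7% of all tested genes. SEC24D, whose loss is known in zebrafish to impair procollagen secretion, had a log2 fold change of 0.19 and did not pass (edgeR adjusted p = 0.151).

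SEC23A passed in 6, MIA3 in 5 and CREB3L2 in 10 of 14 alternatives. By DESeq2 CREB3L2 passed (adjusted p = 0.0113), while SEC23A and MIA3 did not (adjusted p = 0.307 and 0.482). Without a low-count filter none of the 3 passed in edgeR (adjusted p = 0.545 for CREB3L2 and 0.544 for SEC23A and MIA3), and by upper-quartile scaling MIA3 did not (edgeR adjusted p = 0.0572). SEC23A and MIA3 also failed to pass when the length trend was removed. The principal transcripts of MIA3 and CREB3L2 have 8142 and 7412 bases, and that of SEC23A has 4135. After removal CREB3L2 passed (log2 fold change 0.29, edgeR adjusted p = 0.0180), while SEC23A (0.14, 0.0740) and MIA3 (0.14, 0.248) did not. With 1 library left out, CREB3L2 had log2 fold changes of 0.25 to 0.45, SEC23A of 0.14 to 0.18 and MIA3 of 0.16 to 0.26. Of these fits, that of CREB3L2 without nanoparticle replicate 2 passed, with the limit on such fits given for COL13A1.

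The other 3 lists had no member past the threshold. Among 7 tested genes of procollagen processing and assembly the smallest p belonged to FN1, the fibronectin gene, on whose fibrils collagen assembles, with 194 and 198 CPM with nanoparticles and 177 and 187 CPM with PBS (log2 fold change 0.11, edgeR adjusted p = 0.104). TLL2 (0.31, SE 0.19), a protease gene, and PCOLCE (0.12, SE 0.082), which encodes an enhancer of procollagen cleavage, followed. Among 6 tested cross-linking genes LOXL1, a lysyl oxidase, averaged 18.7 ± 0.931 CPM with nanoparticles and 21.3 ± 1.93 CPM with PBS (SD, n = 2 each; -0.19, edgeR adjusted p = 0.219), and PXDN (0.066) and TGM2 (-0.040) were nearer 0. Among 9 tested receptor and uptake genes the 3 smallest p belonged to ADGRG6, an adhesion receptor known to bind type IV collagen (0.12, edgeR adjusted p = 0.0913), MRC2, the endocytic collagen receptor (-0.093, 0.228), and ADGRG1, a receptor known to bind type III collagen (0.23, 0.423). ITGB1, the beta subunit shared by the collagen-binding integrins, averaged 153 CPM per kb over the 4 libraries, and the discoidin receptors DDR1 and DDR2 25.1 and 0.193 CPM per kb.

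**Figure D5:**
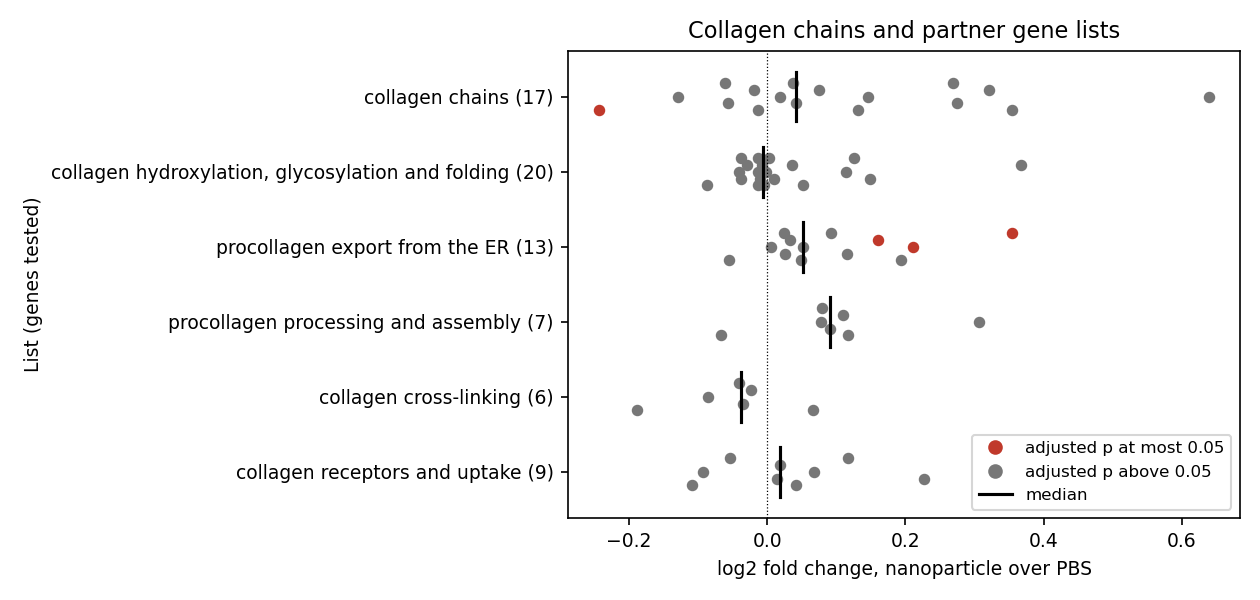
Log2 fold change, nanoparticle over PBS, of each tested gene in the collagen chain list and in the 5 lists of genes that make, export, process, cross-link or bind collagen; the black line is the median of each list and the number of genes tested is in brackets. COL13A1 at -0.24 and, from the export list, CREB3L2, MIA3 and SEC23A at 0.35, 0.21 and 0.16 are the genes past an adjusted p of 0.05.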

How the data were processed

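RNA from 4 libraries of H1299 cells was prepared with a stranded mRNA kit, 300 ng of total RNA each, per the labels' protocols. The deposited values are raw read counts for each Ensembl gene. The submitters' processing notes name build GRCh38, HTSeq 2.0.2, Picard, STAR 2.7.6a, cutadapt 3.5 and bcl2fastq 2.20. The annotation release and strand option are unknown here. Reads not assigned to a single gene (13.7% to 14.8%) were left out. These included reads ambiguous between genes (4.78% to 4.81%) and reads on no annotated feature (2.34% to 2.78%). Symbols were found for 61369 gene rows. Lengths are from GENCODE 29 and promoters from RefSeq.

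After filterByExpr and TMM scaling, the groups were compared by edgeR 4.0.16 in R 4.3.3 with a quasi-likelihood fit; p-values are two-sided and Benjamini-Hochberg adjusted over all tested genes, with a threshold of 0.05 and intervals at 95%. Replicates differed by more than sampling noise (chi-square per degree of freedom 1.95 for nanoparticle and 1.78 for PBS). Members and lists were chosen with earlier results of these data known. Each chain of at least 1 CPM was named, and the 3 tested chains below it; in the other lists the genes past the threshold were named or, where there were none, the 3 with the smallest p. Further genes were named for their role after their values were seen. The procedure was tested on simulated data, with changes placed on well-counted genes only, so the scarce chains were not covered. Alternatives were RLE, upper-quartile and total-count scaling, no filter, at least 50 counts on average, DESeq2 1.42.0, limma-voom 3.58.1, a replicate block, removal of length or of length and GC trends (splines, MASS 7.3.60.0.1), leaving out each library, other expression limits and the exon union as length. Plots used matplotlib 3.10.9.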

Additional observations from a re-analysis of the deposited data

How the results depend on the processing

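The count of 1 collagen chain past the threshold was the same under RLE, upper-quartile and total-count scaling, the stricter filter, limma-voom, the replicate block and both trend removals. It was 0 by DESeq2 (1 chain at an unadjusted p of at most 0.05), 0 without a low-count filter (1 chain) and 0 in each fit that left out 1 library (2 to 4 chains), where the lone library of a group is assumed to vary like the other group. For the genes that make, export and bind collagen the count of 3 became 2 by upper-quartile scaling, 0 without a filter, 1 by DESeq2, 1 with the length trend removed and 1 with length and GC trends removed, and ran from 0 to 1 when a library was left out. For all genes the 407 calls became 0 without a filter, 90 by DESeq2, 759 with the replicate block, 217 with the length trend removed and 260 with length and GC trends removed, and from 0 to 200 when a library was left out. The split of higher to lower was 223 to 190 by upper-quartile scaling and 110 to 107 with the length trend removed, against 276 to 131 as reported. The cause was not tested.

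For the pairing of replicates, the replicate block changed 1 call among the named genes, ADGRG6 (log2 0.12, adjusted p = 0.0320). Deviations of same-numbered libraries had a correlation of 0.0348 over genes above 5 CPM. The mitochondrial share of gene counts rose from replicate 1 to replicate 2 in both groups. It went from 0.371% to 0.512% with nanoparticles and from 0.310% to 0.428% with PBS. Whether same-numbered libraries share more than a number cannot be told from these values. The block changed no call among the collagen chains.

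Chains of at least 5 CPM numbered 9, and 9 of 14 chains kept their rank per kilobase with the exon union as length. The median log2 fold change of the chains ran from 0.00048 to 0.11 when a library was left out. Signs turned for COL17A1 (-0.0034) and COL16A1 (-0.027) with the length trend removed and for COL6A1 (0.0026) with length and GC trends removed. Without 1 library, log2 fold changes lay between these limits: -0.069 to 0.041 for COL6A1, -0.12 to 0.00026 for COL6A2, -0.046 to 0.0071 for COL27A1, -0.11 to 0.24 for COL9A3, -0.014 to 0.29 for COL7A1, -0.20 to 0.28 for COL16A1, -0.25 to 0.00048 for COL11A2, -0.18 to 0.92 for COL4A6, -0.22 to 0.25 for COL25A1 and -0.084 to 0.0020 for TGM2. With the same sign throughout, COL12A1 ran from 0.042 to 0.22, P4HA3 from 0.16 to 0.61, TLL2 from 0.072 to 0.58, PCOLCE from 0.015 to 0.23 and ADGRG1 from 0.042 to 0.44. Depth limits the scarce chains.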
